A study of Bos taurus with 6 samples.

Results

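Genes of Notch signalling were examined on Affymetrix Bovine Genome arrays of bovine articular chondrocytes. The genes chosen were the ligands JAG1, JAG2 and DLL1, the receptors NOTCH1, NOTCH2 and NOTCH3, the DNA-binding factor RBPJ and the target genes HES1 and HEY1. A probe set was taken when the array annotation gave it a single symbol from this list. This rule found 5 of 24016 probe sets, belonging to 3 of the 9174 genes that the annotation named: JAG1 with 2 (called A and B here), RBPJ with 2 (A and B) and HEY1 with 1. The annotation used here named no probe set for JAG2, DLL1, NOTCH1, NOTCH2, NOTCH3 or HES1, and these 6 genes were not analysed here. The 5 probe sets therefore stand for 1 ligand, 1 nuclear factor and 1 target, and for no receptor.

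The arrays came from 3 micromass cultures given TGF-β1 at 5 ng/ml for 8 hours and 3 untreated cultures, which received vehicle. Micromass cultures are drops of cells plated at high density, and these cells were isolated from the full thickness of cartilage of bovine metacarpal-phalangeal joints. The study used 3 cows and grew cultures of each with and without TGF-β. Replicates carry the numbers 1 to 3 in each group, and arrays of the same number were treated as a pair, although the labels do not state that the number stands for the cow. All values are log2 signals that the authors centred on the median of each probe set over the 6 arrays. They show differences between arrays but hold no level, so it cannot be read from them how strongly a Notch gene or a chondrocyte marker was expressed. In bulk cultures, fewer cells of a type and less RNA per cell cannot be told apart.

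Notch signalling passes between neighbouring cells. A ligand such as JAG1 on the surface of a cell binds a Notch receptor on the next, ADAM proteases and then γ-secretase cut the receptor, and its freed intracellular part enters the nucleus. There it joins RBPJ, which otherwise sits on DNA with corepressors, and Mastermind-like coactivators. This complex switches on genes of the HES and HEY families, such as HES1 and HEY1. HES and HEY proteins are transcriptional repressors of the basic helix-loop-helix class. In cartilage, Notch signalling is known to restrain early chondrocyte differentiation, and RBPJ-dependent signalling takes part in chondrocyte maturation in mice.

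Several properties of the whole array bear on what follows. Of 24016 probe sets, 585 rose and 832 fell with TGF-β in a limma model that also held the replicate number (the paired fit), at a Benjamini-Hochberg adjusted p under 0.05, and the words rose and fell below refer to this test. That is 5.90% of all probe sets, with 2.44% higher and 3.46% lower. The excess of lower calls was not stable, with 272 higher and 267 lower without replicate 2. A limma model without the replicate number called 0 probe sets, although 1377 had an unadjusted p under 0.05. The methods name a test with unequal variances. Run here with the same adjustment, it called 0 as well, with 1032 at that unadjusted level. The study chose its list by another rule, a p under 0.05 and at least a 2-fold change, and names no adjustment. On the array of TGF-β replicate 2 the hybridization spike-ins were bright, with a median of 1.53 log2 units over 18 control probe sets, against -0.08 and 0.03 on the other TGF-β arrays and -0.17 to 0.06 on the untreated arrays. Cell cycle genes were high on both arrays of replicate 3.

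JAG1, the ligand, was higher with TGF-β on both of its probe sets. JAG1 probe set A had values of 0.37, 1.14 and 0.32 in the TGF-β cultures of replicates 1, 2 and 3, against -0.47, -0.32 and -1.02 in the untreated cultures. Every TGF-β culture lay above every untreated culture, and the culture of replicate 2 was highest within each group. The mean was 0.61 ± 0.46 with TGF-β and -0.60 ± 0.37 in untreated cultures (SD, n = 3 each). The log2 difference was 1.21 (SE 0.138, n = 3 pairs), a 2.32-fold increase with a 95% interval of 1.87 to 2.88 (limma paired fit, adjusted p = 0.00213).

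JAG1 probe set B had 0.65, 0.56 and 0.17 with TGF-β in replicates 1, 2 and 3, against -0.17, -0.24 and -0.55 in untreated cultures. The groups did not overlap here either, and both cultures of replicate 3 were the lowest of their group. Its log2 difference was 0.78 (SE 0.105, n = 3 pairs), a 1.72-fold increase with a 95% interval of 1.46 to 2.02 (limma paired fit, adjusted p = 0.0047). Both JAG1 probe sets were thus among the 2.44% of probe sets that rose, and among the 6.11% in which the lowest TGF-β value exceeded the highest untreated one (11.0% of probe sets had groups without overlap in either direction). Probe set A is also on the list of changed genes that the study chose on these same arrays. Its direction there is therefore not independent evidence. Probe set B, at 1.72-fold, is not on that list, which required at least a 2-fold change. The values of probe set B come from the same arrays as those of probe set A. Without pairing, the adjusted p became 0.506 for A and 0.458 for B.

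**Figure D1:**
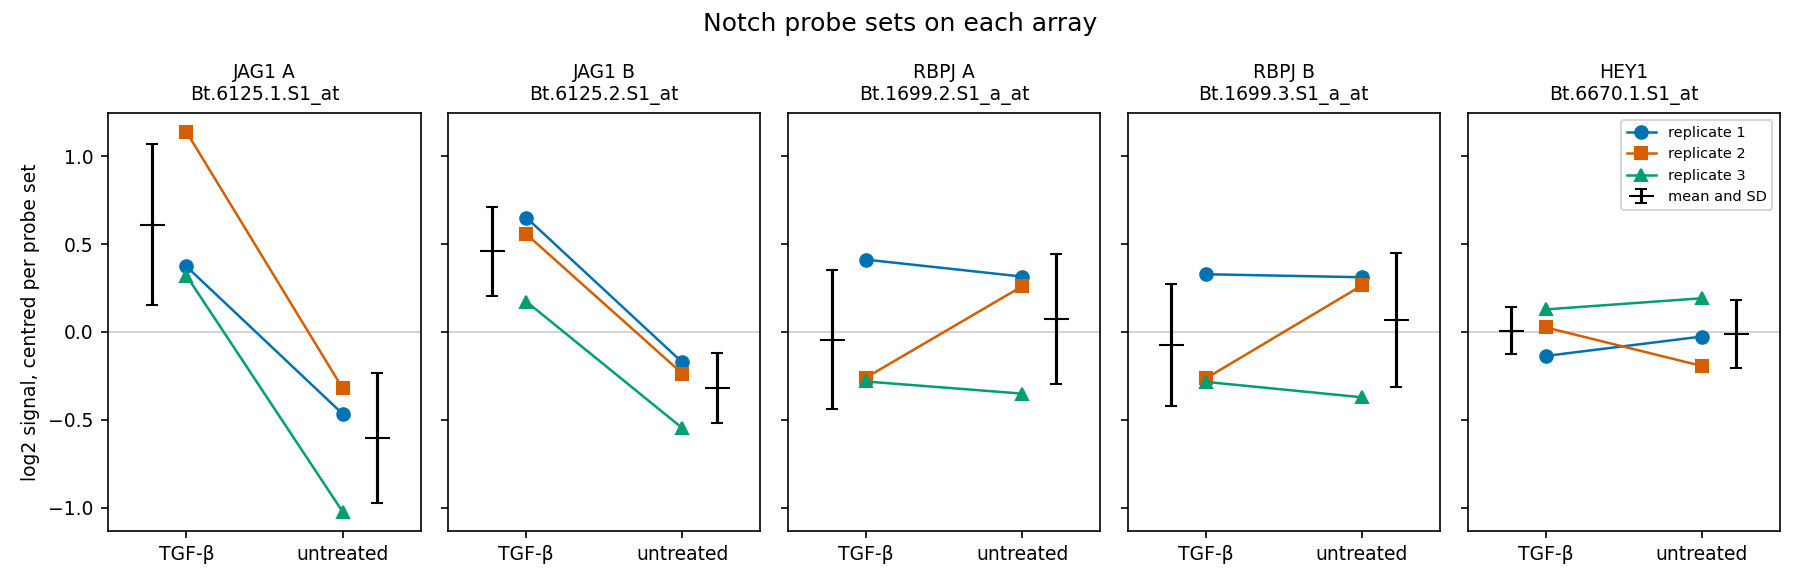
Centred log2 signal of the 5 Notch probe sets on each array, with TGF-β cultures on the left and untreated cultures on the right of each panel, lines joining arrays of the same replicate number, and bars for the mean and SD of 3 arrays. The lines of both JAG1 probe sets run downward from TGF-β to untreated in all 3 replicates, whereas those of RBPJ and HEY1 differ in direction.

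The JAG1 probe sets gave unequal differences. The paired log2 differences of probe set A were 0.84, 1.46 and 1.34 in replicates 1, 2 and 3, and those of probe set B were 0.82, 0.79 and 0.72. They were almost equal in replicate 1, where they lay 0.01 apart, and lay 0.66 and 0.62 apart in replicates 2 and 3. The mean gap was 0.43 log2 units. The spread of the differences between pairs was also unequal, with an SD of 0.33 for A and 0.05 for B. The SD of B was smaller than that of all but 6.65% of the array's probe sets, so its SE of 0.105 comes mainly from the variance limma borrows from other probe sets. An exact sign-flip permutation test over 3 pairs cannot go below p = 0.25 (2-sided), which is the value it gave for this gap, so the difference between the probe sets could not be shown. Which part of the JAG1 transcript each probe set reads was not analysed here. The mean over both probe sets rose by 0.996 log2 units (SE 0.0981, n = 3 pairs; limma paired fit, adjusted p over genes 0.00338).

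Leaving out both arrays of any 1 replicate kept the JAG1 calls. The log2 difference of probe set A then ranged between 1.09 and 1.40, with an adjusted p of 0.0285 at most, and that of probe set B between 0.76 and 0.81, with an adjusted p of 0.0353 at most. The highest p of either probe set came without replicate 2, the replicate whose TGF-β array had the bright spike-ins. Calls over the whole array also dropped there, to 539 from 1417. Without replicate 2 the log2 difference was 1.09 for A and 0.77 for B. The part of the spike-in signal in these values was not tested.

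**Figure D2:**
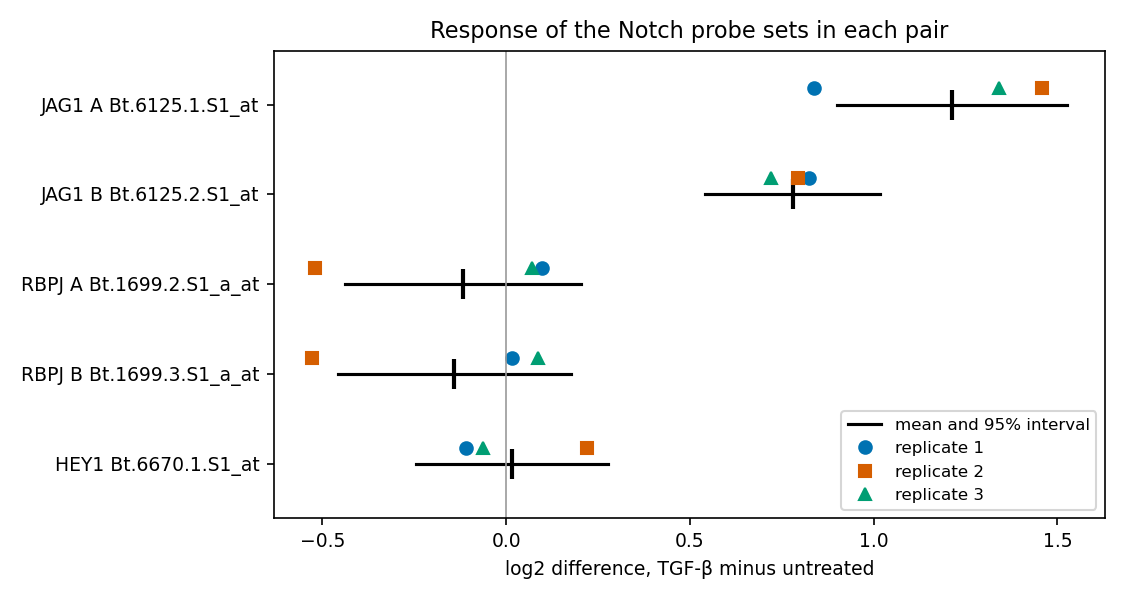
Log2 difference, TGF-β minus untreated, of the 5 Notch probe sets in each replicate (symbols), with the mean (tick) and limma's 95% interval from the paired fit (line). The intervals of JAG1 lie between 0.54 and 1.53 and leave out 0, and those of RBPJ and HEY1 include 0.

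Set among the whole array, the JAG1 response was large but far from the largest. By log2 difference, probe set A stood at place 104 and probe set B at place 261 of 24016 probe sets. Among the 585 that rose they were at places 101 and 236. The highest difference on the array was 3.80 and the lowest -2.69, with a median of 0.01.

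**Figure D3:**
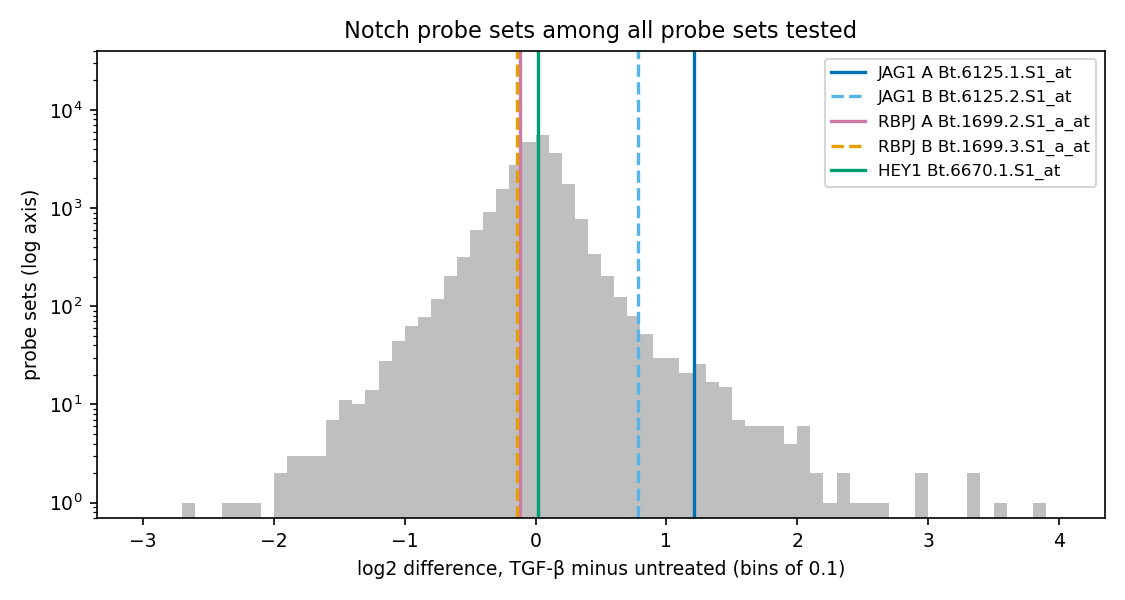
Histogram of the log2 difference, TGF-β minus untreated, of all 24016 probe sets tested (number of probe sets on a log axis, bins of 0.1), with a vertical line for each Notch probe set. The JAG1 lines, at 1.21 and 0.78, stand in the upper tail, and those of RBPJ (-0.12 and -0.14) and HEY1 (0.02) stand near the centre.

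RBPJ, the DNA-binding factor through which all Notch receptors act on their targets, did not pass the test. RBPJ probe set A had 0.41, -0.26 and -0.28 with TGF-β in replicates 1, 2 and 3, against 0.32, 0.26 and -0.35 in untreated cultures. The groups overlapped, and the cultures of replicate 3 were low with and without TGF-β. The log2 difference was -0.12 (SE 0.141, n = 3 pairs; limma paired fit, adjusted p = 0.734), or 0.92-fold with a 95% interval of 0.74 to 1.15.

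RBPJ probe set B gave almost the same profile, with 0.33, -0.26 and -0.28 in the TGF-β cultures and 0.31, 0.26 and -0.37 in the untreated cultures. The root mean square gap between the RBPJ probe sets over the 6 arrays was 0.035 log2 units. Its log2 difference was -0.14 (SE 0.139, n = 3 pairs; limma paired fit, adjusted p = 0.665). By the suffix of their names, the RBPJ probe sets hold probes that match more than 1 transcript of the gene, so these values cannot be assigned to 1 transcript.

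The negative means of RBPJ came from replicate 2 alone. Its paired difference was -0.52 and -0.53 on the RBPJ probe sets, against 0.02 to 0.10 in replicates 1 and 3. Without replicate 2 the RBPJ differences were 0.083 for A and 0.052 for B, with the sign turned. The TGF-β array of replicate 2 also had the lowest 5′ minus 3′ difference for actin, a control of RNA quality, with -0.52 log2 units against -0.17 and 0.39 on the other TGF-β arrays and -0.14 to 0.06 on the untreated arrays. The other controls of this kind did not set that array apart: for ef1a it had 0.04, within the range of the other arrays (-0.41 and 0.37 with TGF-β, -0.19 to 0.26 untreated), and for gapd -0.10, close to the -0.09 of untreated replicate 3. The part of RNA quality in the RBPJ values was not tested.

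HEY1, the only HES or HEY family target among the chosen genes that could be read, did not pass either. HEY1 had -0.14, 0.03 and 0.13 with TGF-β in replicates 1, 2 and 3, against -0.03, -0.19 and 0.19 in untreated cultures. The groups overlapped fully, and the sign of the paired difference varied, with -0.11, 0.22 and -0.06. The log2 difference was 0.02 (SE 0.115, n = 3 pairs; limma paired fit, adjusted p = 0.966). The 95% interval ran between 0.84-fold and 1.21-fold, which holds neither of the JAG1 changes. Since the values hold no level, it cannot be read whether the HEY1 signal lay above background. The interval thus describes the signal of this probe set. A change of HEY1 within that interval was not excluded by 3 pairs, and the interval does not give the smallest change that the test could call. Without replicate 2 its difference was -0.087.

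Of the 5 Notch probe sets, 2 rose and 3 did not pass, against the array's 5.90% called (2.44% higher). Both that rose belong to JAG1, so they stand for 1 gene of the 3 measured. The genes were chosen with earlier results of these data known, so these shares are a description. Limma's paired fit called 0 of the 5 lower, and 0 were lower at an unadjusted p under 0.05 in that fit or in the unequal-variance test. The median difference over the 5 was 0.02 log2 units, against 0.01 over all probe sets.

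In every pair, the JAG1 difference exceeded that of HEY1 and of RBPJ. The log2 difference of probe set A was larger than that of HEY1 by 0.95, 1.24 and 1.41 in replicates 1, 2 and 3. For probe set B the excess over HEY1 was 0.93, 0.57 and 0.78. The mean excess of the JAG1 probe sets over RBPJ lay between 0.90 and 1.35. In 10 such comparisons between the 5 probe sets, the 2-sided exact sign-flip permutation test gave p = 0.25, the lowest that 3 pairs allow, for the 7 that had the same sign in every pair (adjusted p = 0.357). Their direction was thus shared by 3 of 3 pairs, without a test that could reach the threshold.

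Around these genes, a wider list of 60 Notch pathway genes had 34 with a named probe set, and 60 probe sets in all. Of these 60, 1 fell, 0 rose and 59 did not pass in limma's paired fit, and 3 had an unadjusted p under 0.05 (with unequal variances 1 had, and 0 were called). The share called, 1.67%, was below the array's 5.90%. The median difference was 0.03 log2 units and the range -0.57 to 0.28.

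The probe set that fell belonged to LFNG, which encodes lunatic fringe, a glycosyltransferase that modifies Notch receptors in the Golgi and shifts their response between Delta and Jagged ligands. It had 0.10, -0.10 and -0.88 with TGF-β in replicates 1, 2 and 3, against 0.91, 0.45 and -0.52 in untreated cultures. Each TGF-β culture was below its own untreated culture, while the groups overlapped, both cultures of replicate 3 being low. The log2 difference was -0.57 (SE 0.121, n = 3 pairs; limma paired fit, adjusted p = 0.028). In other limma fits, the call was lost without replicate 1 (adjusted p = 0.164) or replicate 2 (adjusted p = 0.122) and after quantile normalization (adjusted p = 0.0995). It was also lost in separate fits with the replicate as a random effect (adjusted p = 0.268) and without pairing (adjusted p = 0.996). The other LFNG probe set had a difference of 0.05 (limma paired fit, adjusted p = 0.868), and the mean of both had -0.26 (adjusted p over genes 0.194). The remaining fringe gene measured, MFNG, had -0.01, and POFUT1, which adds the first fucose to Notch, had -0.03.

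Other ligands did not pass. DLL4, a Delta ligand known for its role in endothelial cells, had a log2 difference of -0.03 (adjusted p = 0.921). DLK1, which encodes a Delta-like protein that lacks the receptor-activating domain, had 0.20 and 0.10 on its probe sets, and its relative DLK2 had -0.06 and 0.11. NOTCH4 was the only receptor of the family with named probe sets, and its differences were 0.14 and 0.18 (adjusted p = 0.565 and 0.402). The NOTCH4 probe set with the larger difference had 0.19, 0.21 and -0.07 in the TGF-β cultures of replicates 1, 2 and 3, against -0.03, 0.03 and -0.21 in the untreated cultures. Each TGF-β value was thus above its own untreated value, and the groups overlapped.

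The proteases that cut Notch did not pass in any of 10 probe sets, with 2 at an unadjusted p under 0.05. PSEN2, a catalytic subunit of γ-secretase, had -0.27 (SE 0.107, n = 3 pairs; adjusted p = 0.206), and FURIN, the convertase that matures the receptor, had 0.27 (SE 0.112, n = 3 pairs; adjusted p = 0.217) on 1 probe set and 0.20 on the other. ADAM10, which makes the first ligand-induced cut, had -0.03, 0.04 and 0.09 on 3 probe sets. The other γ-secretase subunits NCSTN, APH1A and PSENEN ranged between -0.18 and 0.06.

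The nuclear partners of RBPJ did not pass. Of 8 probe sets of coactivators, 0 passed and the differences lay between -0.12 and 0.28, the highest being that of the Mastermind-like gene MAML2 (adjusted p = 0.265). Of 20 probe sets of corepressors, 0 passed, with differences of -0.27 to 0.23. CTBP1, a corepressor recruited to RBPJ complexes, had -0.23 (adjusted p = 0.26) on 1 probe set and 0.14 on the other. That CTBP1 probe set and 1 of CIR1 (-0.14), another corepressor that binds RBPJ, were below the untreated arrays on every TGF-β array, as were 4.91% of all probe sets. The 10 probe sets for ligand trafficking and Notch turnover, among them NUMB, ITCH, DTX1 and FBXW7, lay between -0.06 and 0.26 and did not pass. HES6, the only HES gene with a named probe set, had 0.13 (limma paired fit, adjusted p = 0.582). Whether HES6 follows Notch activity in these cells was not tested. At an unadjusted p under 0.05, limma's paired fit had 0 probe sets of the coactivators, corepressors, trafficking genes or HES6.

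**Figure D4:**
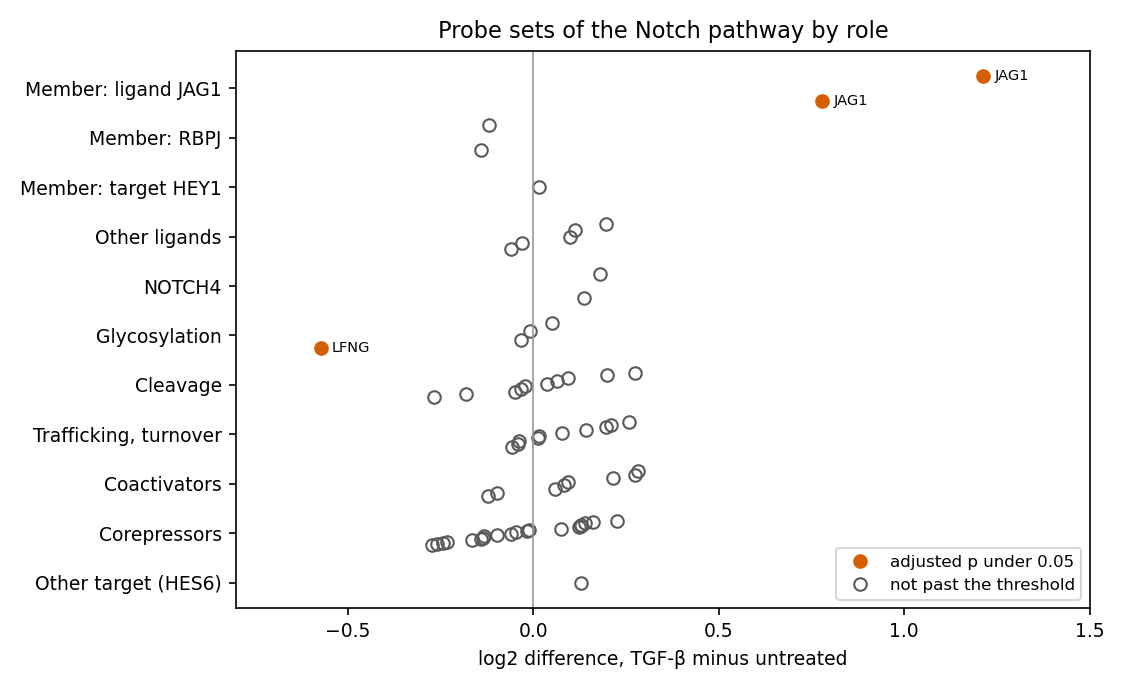
Log2 difference, TGF-β minus untreated, of the 5 Notch probe sets and 60 further pathway probe sets (circles), by role, with filled circles for an adjusted p under 0.05 in the paired fit. JAG1 stands at 0.78 and 1.21 and 1 probe set of LFNG at -0.57, and all other circles lie between -0.27 and 0.28.

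The replicates differed from each other as well. In a moderated F test of the replicate terms, 6614 probe sets, or 27.5% of the array, differed between replicates at an adjusted p under 0.05, and 2 of the 5 Notch probe sets did. JAG1 probe set A, averaged over its TGF-β and untreated arrays, had -0.05, 0.41 and -0.35 in replicates 1, 2 and 3 (adjusted p = 0.0244). RBPJ probe set A had 0.36, 0.00 and -0.32 (adjusted p = 0.0446), and RBPJ probe set B had an adjusted p of 0.0512. Thus JAG1 and RBPJ were lowest in replicate 3. JAG1 probe set B, with 0.24, 0.16 and -0.19, did not pass (adjusted p = 0.0668), and neither did HEY1, with -0.08, -0.08 and 0.16 (adjusted p = 0.342). After quantile normalization, which made the spread of the arrays equal, 0 of the 5 passed, and after median scaling 1 did.

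In the wider pathway, replicate 3 was far from the others for 1 of the FURIN probe sets and for NUMBL. Of the 60 probe sets, 18 (30.0%) differed between replicates, a share near that of the array. The 5 largest ranges, picked after their values were seen, belonged to FURIN, NUMBL, DLK2, PSEN2 and LFNG. That FURIN probe set had 0.14, 0.21 and -1.71 in replicates 1, 2 and 3, while the other FURIN probe set had 0.00, 0.30 and -0.45. NUMBL, which encodes a relative of the Notch inhibitor Numb, had -0.04, -0.18 and 1.47. A DLK2 probe set had 0.00, -0.64 and 0.64. In replicate 3 the median of 14 cell cycle probe sets was 1.66 in the TGF-β culture and 2.03 in the untreated culture, against -0.26 to -0.03 in the other TGF-β cultures and -0.11 to -0.08 in the other untreated cultures. In replicate 1, where RBPJ was highest, 3 of 8 macrophage probe sets, all of CD68 or CD14, were high on both arrays. Only these 3 of the 8 (37.5%) differed between replicates, against 27.5% of all probe sets. CD68 had replicate means of 1.43, -0.18 and -0.19, and the CD14 probe sets had 0.94 and 1.43 in replicate 1, against -0.57 to 0.00 in the others (adjusted p of 0.000186 at most, moderated F test), while CSF1R, PTPRC and AIF1 lay between -0.09 and 0.16. Of 21 chondrocyte probe sets, 7 were of COL11A1. In replicate 2, where JAG1 probe set A was highest, the median of the 21 was 0.64 with TGF-β and 0.75 untreated. It was -0.28 to -0.22 in the other TGF-β cultures and -0.07 to 0.01 in the other untreated cultures. Between replicates, 14 of the 21 (66.7%) differed in the moderated F test, against 27.5% of all probe sets. The part of cell proliferation or cell makeup in these values was not tested.

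**Figure D5:**
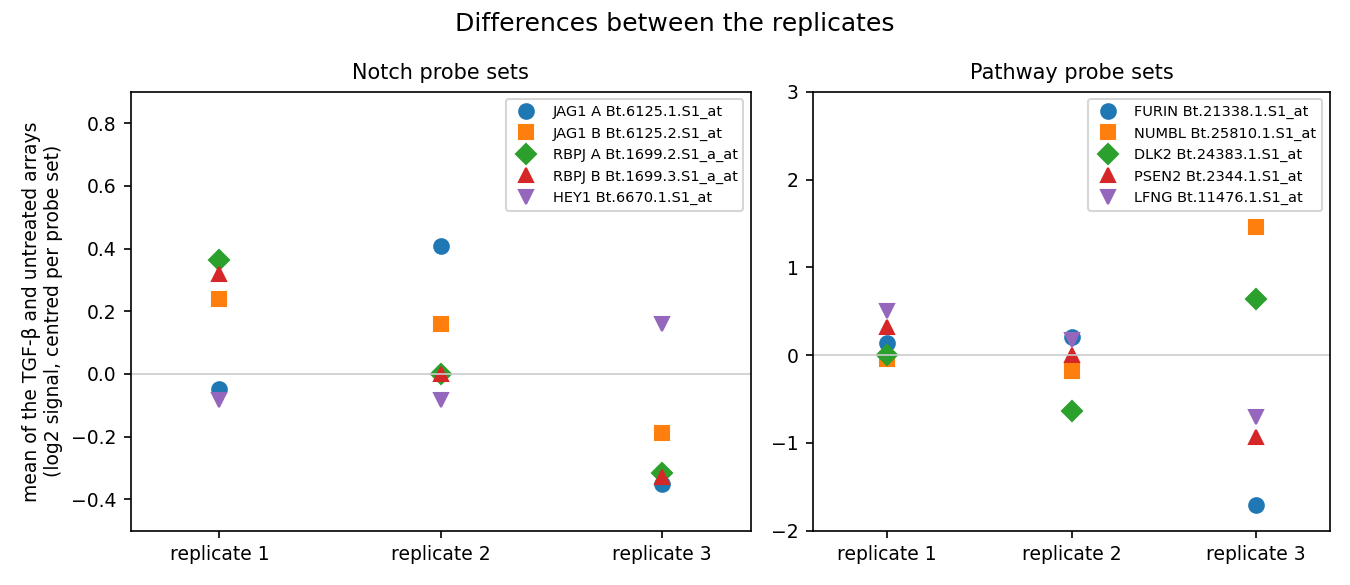
Mean of the TGF-β and untreated arrays (centred log2 signal) in each replicate, for the 5 Notch probe sets (left) and the 5 pathway probe sets with the largest range (right, with a wider axis). JAG1 and RBPJ are lowest in replicate 3, and the FURIN probe set shown lies at -1.71 there.

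The genes whose values were most like those of JAG1 were sought among 13314 named probe sets by the root mean square gap over the 6 arrays. Closest to probe set A, with a gap of 0.13 log2 units, was a probe set annotated as TPR that the study's list names PRG4, the gene of the joint lubricant lubricin. It was followed by TNK2, which encodes a tyrosine kinase (0.21), TENT4A, which encodes a nucleotidyltransferase acting on RNA tails (0.22), the bicarbonate transporter gene SLC4A7 (0.24) and the collagen lysyl hydroxylase gene PLOD2 (0.24). Closest to probe set B were ISOC1 (0.07), the ubiquitin ligase gene AREL1 (0.09), LIF, which encodes a cytokine of the interleukin 6 family (0.11), the latrophilin gene ADGRL2 (0.11) and ACSL3, which encodes an acyl-CoA synthetase (0.13). The JAG1 probe sets had none of these 10 neighbours in common, and they lay 0.35 log2 units from each other. Being chosen for likeness, the neighbours' own changes are a description. Their log2 differences, TGF-β minus untreated, lay between 0.71 and 1.28.

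JAG1, HEY1, DLL4 and NOTCH4 are also expressed by cells of vessels, so markers of such cells were read on the same arrays. In limma's paired fit, 0 of 13 endothelial probe sets passed (0 at an unadjusted p under 0.05). Their median lay between -0.05 and 0.05 log2 units on the TGF-β arrays and between -0.03 and 0.01 on the untreated arrays. Of 6 mural and smooth muscle probe sets 0 passed (1 at an unadjusted p under 0.05), with medians of -0.10 to 0.02 with TGF-β and -0.07 to 0.13 without. Of 8 macrophage probe sets 0 passed (1 at an unadjusted p under 0.05), with medians of -0.02 to 0.07 with TGF-β and -0.04 to 0.11 without. Of 21 probe sets of chondrocyte markers, 2 rose, both of COMP, and 4 fell, all of COL11A1, against 2.44% higher and 3.46% lower over the array. COL11A1 held 7 of the 21, and its remaining probe sets, with differences of 0.02, -0.33 and -0.41, did not pass. With 5.90% of the array called, 0 calls in lists this short is close to the background, and since the values hold no level, the counts do not show whether vessel cells or macrophages were present.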

How the data were processed

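RNA was amplified in a pair of cycles and hybridized to the arrays. The authors read the scans into GeneSpring and applied Robust Multichip Average (RMA) at default settings, versions not given in the sources used here. The deposited values are log2 RMA signals centred on each probe set's median over the 6 arrays (largest absolute median 5e-07), used here as deposited. A filter on dim probe sets was therefore not possible. Of 24128 probe sets, 112 controls were left out. Symbols came from the array annotation, updated through Entrez IDs, or from the study's list where blank (24 probe sets): 13292 had 1 symbol from the annotation, 86 several and 10614 none from either.

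Differences, TGF-β minus untreated, were fitted in R 4.3.3 by lmFit and eBayes of limma 3.58.1 (2-sided; random effects with statmod 1.5.0), each replicate number having its own term (2 residual degrees of freedom, prior SD 0.144) and Benjamini-Hochberg adjustment over all 24016 probe sets at 0.05. Deviations from the group means correlated across probe sets with r = 0.740, 0.694 and 0.845 for arrays of the same number and -0.683 to 0.185 otherwise, and the study grew cultures of each cow in both conditions, which is the basis of the pairing. No array was a copy of another (at most 56 identical values in any of 15 pairs). With 3 arrays per group, precision is limited. P-values of the paired fit rest on the spread of the differences between these pairs, together with variance that limma borrows from other probe sets. The borrowed part counts for 6.72 degrees of freedom, against the 2 residual ones. The members and lists were chosen with earlier results of these data known. Named were all Notch probe sets; of the pathway list, each gene called and the 4 others with the smallest p; the 5 nearest neighbours of each called probe set; other members named to show a group's breadth were chosen after their values were seen. The alternatives tried are the fit without the replicate number, a random replicate effect, left-out replicates, quantile and median scaling, a robust prior, the unequal-variance test of the methods and gene means. A planned search for motifs in promoters was not run. Figures were drawn with matplotlib 3.10.9.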

Additional observations from a re-analysis of the deposited data

How the results depend on the processing

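Both JAG1 probe sets kept their direction in every alternative run and their call in all 8 with pairing: a random replicate effect, quantile and median scaling, a robust prior, gene means and each left-out pair (log2 differences of 0.996 to 1.40 for JAG1 A and 0.76 to 0.996 for JAG1 B, the 0.996 being their shared gene mean). Neither passed in the 8 alternatives without the replicate block. There, the limma fit on the groups alone and the test with unequal variances each called 0 probe sets on the array, 0 Notch probe sets and 0 of the other pathway probe sets. The count over the whole array was 312 with the replicate as a random effect (148 higher, 164 lower), 820 after quantile normalization (377 higher, 443 lower) and 649 genes for gene means (218 higher, 431 lower), which have fewer rows to test, and 539 to 1337 with 1 pair left out, against 1417 in the paired fit (0 in each fit with 1 array left out and no replicate block). The Notch probe sets called higher were 1 gene (JAG1) for gene means and 0 to 2 with replicates left out, the 0 in fits without the replicate block. The other pathway probe sets called were 0 with a random replicate effect, after quantile normalization and for gene means, and 0 to 1 with replicates left out. The replicate effect was called in 0 of the Notch probe sets after quantile normalization and in 1 after median scaling. The cause of these changes was not tested. With 1 pair left out, differences ranged between -0.23 and 0.083 for RBPJ A, between -0.26 and 0.052 for RBPJ B and between -0.087 and 0.078 for HEY1, each sign turning without replicate 2. With 1 array left out and no replicate block, RBPJ A had 0.0013 without TGF-β replicate 3 and 0.0023 without untreated replicate 1, and HEY1 had -0.046 without TGF-β replicate 3 and -0.077 without untreated replicate 2, against -0.12 and 0.02 with all arrays. Signal over background cannot be read from centred values, so weakly hybridizing probe sets could not be set apart.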
